A study of Mus musculus with 27 samples.

Results

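The genes described here encode the mitochondrial respiratory chain and the ATP synthase, measured in mouse liver. Members were the probe sets whose annotation gave 1 symbol beginning with Nduf, Uqcr, Cox4 to Cox8 or Atp5, or naming Sdha, Sdhb, Sdhc or Sdhd. The rule used names and no measured value, and it found 98 probe sets for 71 genes among the 12488 probe sets of the table. A probe set is the group of short array probes that together report 1 transcript. Complex I had 42 probe sets for 31 genes, complex II 4 for 4, complex III 7 for 7, complex IV 23 for 15 and complex V 22 for 14. The name rule also takes in helpers that are not subunits, such as the complex I assembly factors Ndufaf1 and Ndufaf4. Uqcrfs1, Atp5b and Cox4i2 were not listed under a symbol of their own and are not analysed here.

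The respiratory chain sits in the inner mitochondrial membrane. Complex I (NADH dehydrogenase) and complex II (succinate dehydrogenase, which is also an enzyme of the citric acid cycle) pass electrons to ubiquinone, complex III passes them on to cytochrome c, and complex IV (cytochrome c oxidase) hands them to oxygen. Complexes I, III and IV pump protons, and complex V, the ATP synthase, makes ATP from the proton gradient. Hepatocytes are rich in mitochondria, and their gluconeogenesis, urea synthesis and fatty acid oxidation depend on this machinery. Apart from complex II, each complex also holds subunits encoded in mitochondrial DNA, which the name rule does not reach.

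Each array measured RNA from the liver of 1 mouse, and 27 mice fell into groups of 9 labelled Con, Veh and Dex. What those short names stand for is nowhere written, and no strain, sex, age, agent, dose or time is given, so nothing is known here of what the groups share beyond the tissue. The deposited values are linear intensities. The labels describe each array as its own mouse, so the spread within a group is that between mice, together with the error of the arrays. Testing required a probe set to exceed the array-wide median intensity on 9 or more of the 27 arrays. Of the 98 members 72 (63 genes) passed, of which 63 exceeded it on all 27 arrays and the other 9 on fewer. The 23 members called in either comparison against Con were all among the 63. The 26 members that were not tested had mean log2 intensities from 1.43 to 4.33 over a floor of 2.6 intensity units. For 8 genes no probe set was tested, among them Cox5a, a nuclear-encoded subunit of complex IV, and Cox8a. No depth exists for arrays, and their number limits the precision.

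The libraries did not all stand together. Tat, a liver enzyme gene induced by glucocorticoids, lay between 13.5 and 13.94 (log2 intensity) in Dex 1, 2 and 3, against 11.54 to 12.46 in the remaining Dex mice and 10.69 to 12.24 in Con and Veh. Fkbp5, another glucocorticoid-induced gene, lay between 10.9 and 11.53 in those 3 mice, at 5.88 to 7.34 in the 6 remaining Dex mice and at 5.05 to 8.13 in Con and Veh. Mt1 and Per1, also glucocorticoid-induced, separated these mice less or not at all: Mt1 lay at 12.89 to 14.43 in them and at 7.7 to 12.27 in the 6, and Per1 at 5.77 to 7.14 and 3.2 to 6.99. The main counts that rest on the Dex group are therefore also given without Dex 1, 2 and 3. The beta-actin 3' to 5' ratio, a log2 measure of how far the signal is biased to the transcript's end, averaged 0.947 ± 0.243 over the Con, 1.27 ± 0.318 over the Veh and 0.886 ± 0.169 over the Dex mice (SD, n = 9 mice each). It differed between Dex and Veh (two-sided exact permutation test, p = 0.00457 after adjustment over 3 quality measures), with adjusted p = 0.0521 for Veh vs Con and 0.54 for Dex vs Con. The Gapdh ratio gave adjusted exact p-values of 0.0213, 0.133 and 0.209 in the same order. The remaining measure, the median intensity of each array, averaged 28.2 ± 3.75 in Con, 23.4 ± 4.72 in Veh and 24.8 ± 5.36 in Dex (SD). Its adjusted exact p-values were 0.577, 0.0521 and 0.209 in that order of comparisons. For the labelled tissue, 6 of 7 hepatocyte markers were on the array, and all 6 passed the filter.

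Printed next are promoter windows of 4 of the 12 genes called higher in Veh than in Con: the 3 that hold a YY1 match, chosen for that match, and Sdhb, which had the smallest adjusted p of the 9 without one. The windows run from 250 bases before to 50 bases after the annotated transcription start (RefSeq, mouse GRCm38.p6). A table of these windows held 58 of the 71 genes. Ndufb8, Ndufa9 and Ndufc1 encode accessory subunits of complex I, and each window holds 1 match to AAGATGGC, the core of the site bound by YY1, printed in capitals. Sdhb encodes the iron-sulfur subunit of complex II, and its window holds no match to AAGATGGC or to CCGGAAGT.

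Ndufb8 (chr19:44555393-44555692, minus strand): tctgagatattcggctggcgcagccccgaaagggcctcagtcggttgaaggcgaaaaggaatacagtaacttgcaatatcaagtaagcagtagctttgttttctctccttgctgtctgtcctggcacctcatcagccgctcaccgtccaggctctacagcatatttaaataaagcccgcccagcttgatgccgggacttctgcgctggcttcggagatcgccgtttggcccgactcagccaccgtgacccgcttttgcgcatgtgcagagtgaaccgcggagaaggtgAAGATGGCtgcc
Ndufa9 (chr6:126849095-126849394, minus strand): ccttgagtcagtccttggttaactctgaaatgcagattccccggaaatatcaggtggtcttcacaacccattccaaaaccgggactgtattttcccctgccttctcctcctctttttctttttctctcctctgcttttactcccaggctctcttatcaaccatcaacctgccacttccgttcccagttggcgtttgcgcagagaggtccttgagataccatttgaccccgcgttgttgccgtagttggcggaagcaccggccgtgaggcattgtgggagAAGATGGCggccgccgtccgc
Ndufc1 (chr3:51408906-51409205, minus strand): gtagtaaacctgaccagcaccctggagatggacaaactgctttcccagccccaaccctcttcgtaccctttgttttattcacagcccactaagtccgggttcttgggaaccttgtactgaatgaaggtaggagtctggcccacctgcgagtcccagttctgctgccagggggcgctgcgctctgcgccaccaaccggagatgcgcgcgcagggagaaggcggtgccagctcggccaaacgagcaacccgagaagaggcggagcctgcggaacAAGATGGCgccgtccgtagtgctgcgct
Sdhb (chr4:140961021-140961320, plus strand): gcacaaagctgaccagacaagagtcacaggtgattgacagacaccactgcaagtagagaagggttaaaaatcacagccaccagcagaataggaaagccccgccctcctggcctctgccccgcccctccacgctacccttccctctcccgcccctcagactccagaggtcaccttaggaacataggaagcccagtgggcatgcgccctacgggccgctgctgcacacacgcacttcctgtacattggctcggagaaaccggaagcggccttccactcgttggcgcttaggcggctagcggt

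In the first 3 windows the match begins at base 39, 30 and 23, in the order printed and counting the start site as base 1, and reads along the gene's own strand. On both strands together, AAGATGGC occurred in the windows of 8 of the 58 member genes (13.8%) and of 3.19% of the 27025 genes in the table. CCGGAAGT, an ETS motif of the kind bound by GABP, occurred in 4 member genes (6.9%) and 4.31% of all. Of the 12 member genes called higher in Veh than in Con, 3 held AAGATGGC and 9 held neither AAGATGGC nor CCGGAAGT. The windows were also searched for the motif of NRF1, and that result is not reported here. It was left out after it had been seen, so the 2 motifs above are not all that were searched. A match is a description of the letters and shows no binding.

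**Figure D1:**
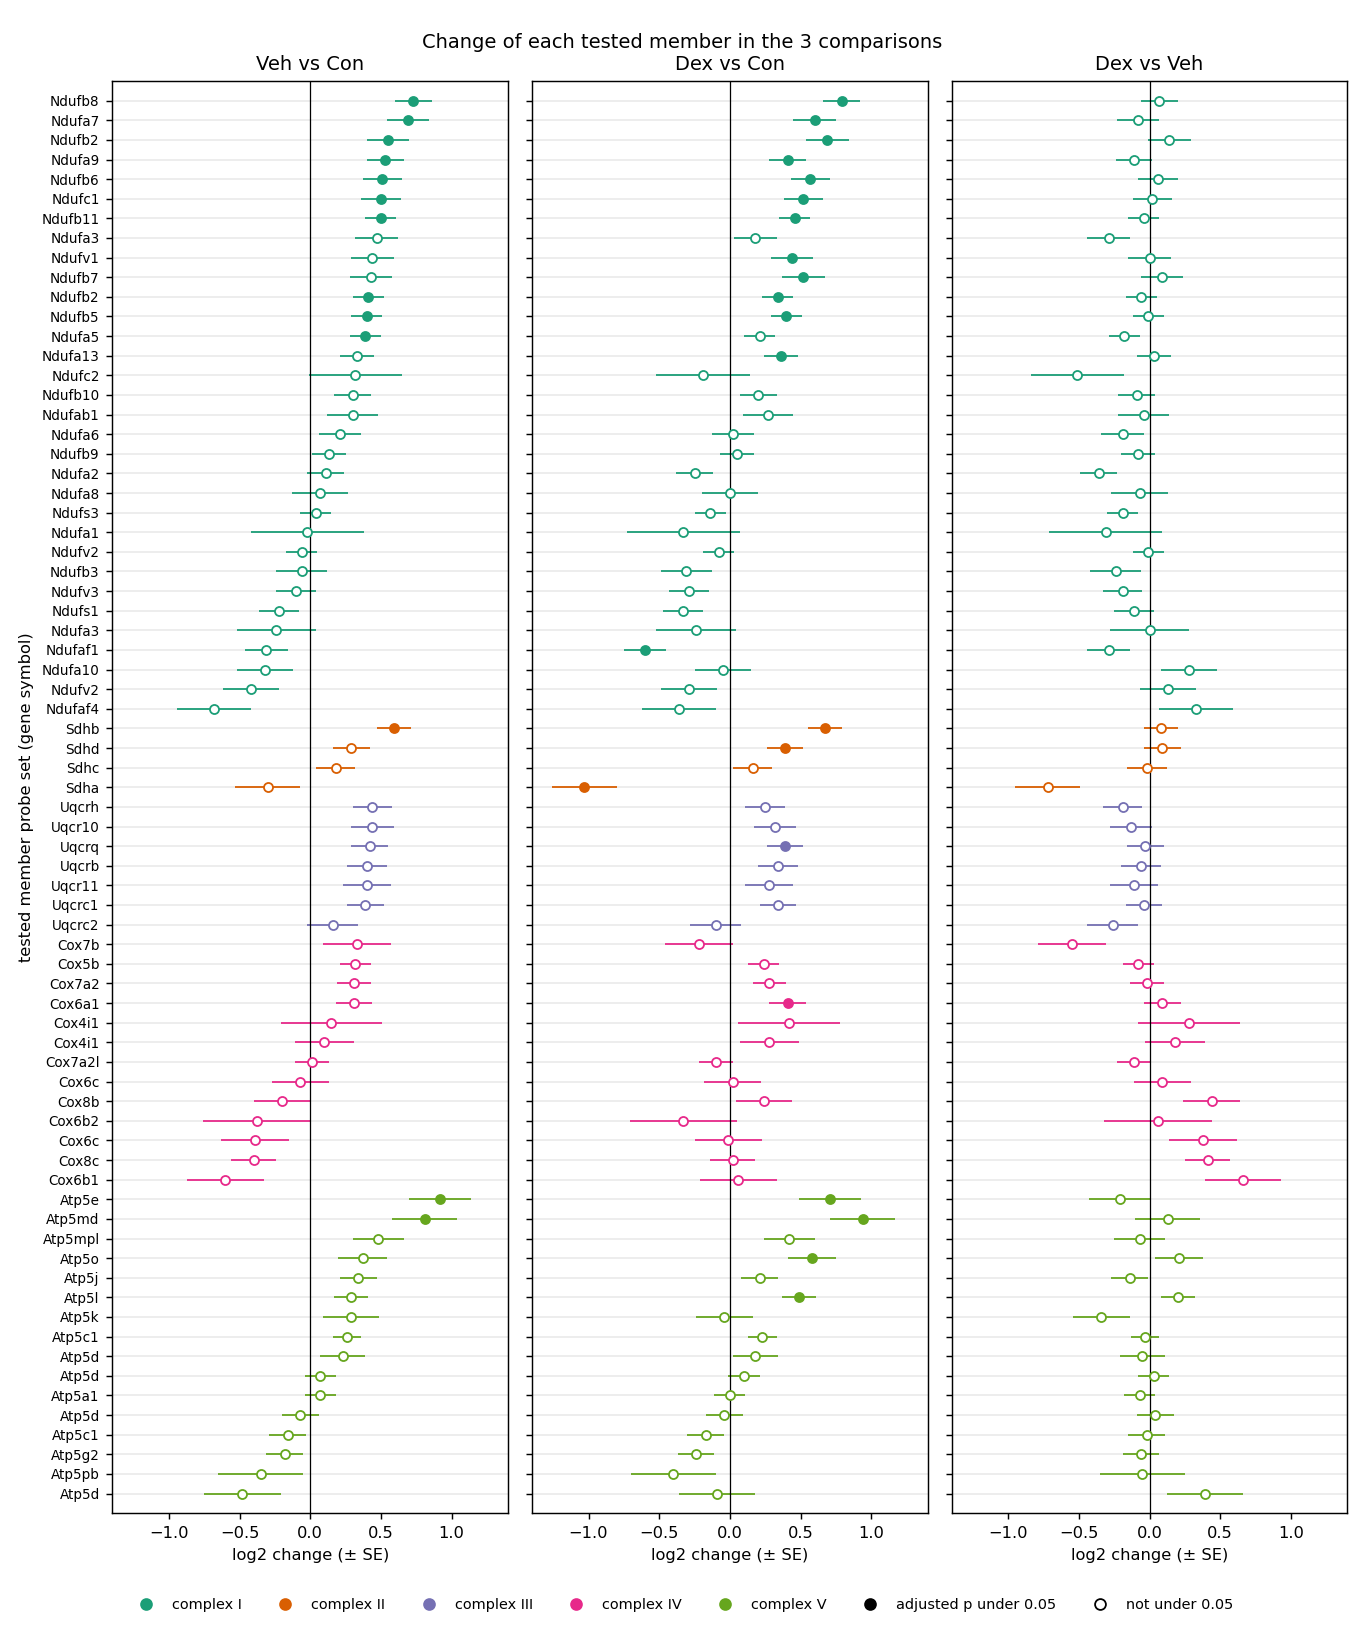
Log2 change of each of the 72 tested members in Veh vs Con, Dex vs Con and Dex vs Veh (points, with SE bars from the limma fit), coloured by complex. Filled points passed an adjusted p of 0.05: 13 in Veh vs Con, 22 in Dex vs Con and 0 in Dex vs Veh.

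Respiratory chain transcripts were higher in Veh than in Con for a set of complex I, II and V subunits, and none of the tested members passed in the other direction. Of the 72 tested members, 13 rose and 0 fell (limma, Benjamini-Hochberg over all 6784 tested probe sets, threshold 0.05). Over all tested probe sets 1.19% rose, 2.67% fell and 3.86% were called in either direction. At an unadjusted p of 0.05, 38 members passed, against 23.6% of all tested probe sets. The median change of the members was 0.27 on the log2 scale against -0.19 for all tested probe sets, so the members lay 0.47 above the bulk of the array, and 50 of the 72 had a positive change. In bulk liver RNA, fewer cells of a type and less RNA per cell cannot be told apart, for rises as for falls. The 13 probe sets came from 12 genes: Ndufa5, Ndufa7, Ndufa9, Ndufb2, Ndufb5, Ndufb6, Ndufb8, Ndufb11 and Ndufc1 of complex I, Sdhb of complex II, and Atp5e and Atp5md of complex V. Values of Con and Veh did not overlap for 2 of them, Sdhb and Atp5e, both higher in Veh. Over all tested probe sets 14 (0.206%) were higher without overlap, 13 of them among the brightest 1357, and 0.206% were lower without overlap.

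Dex compared with Con gave 20 members that rose and 2 that fell, with 16.4% of all tested probe sets called in either direction, 3.26% higher and 13.2% lower. At an unadjusted p of 0.05, 30 members passed, against 31.5% of all tested probe sets. Values of Dex and Con did not overlap for 3 members, Ndufb8, Sdhb and Ndufb11, all higher in Dex. Over all tested probe sets 14 (0.206%) were higher without overlap, 11 of them among the brightest 1357, and 0.56% were lower without overlap. The median change of the members was 0.19 against -0.20 over all tested probe sets, a difference of 0.39. The 20 came from 19 genes and covered every complex: Ndufa7, Ndufa9, Ndufa13, Ndufb2, Ndufb5, Ndufb6, Ndufb7, Ndufb8, Ndufb11, Ndufc1 and Ndufv1 of complex I, Sdhb and Sdhd of complex II, Uqcrq of complex III, Cox6a1 of complex IV, and Atp5e, Atp5l, Atp5md and Atp5o of complex V. Sdha of complex II and the assembly factor gene Ndufaf1 fell. Without Dex 1, 2 and 3 there were 11 called, 10 higher and 1 lower (Sdha), against 5.97% of all tested probe sets called, 1.31% higher and 4.66% lower. This comparison and Veh vs Con use the same 9 Con arrays, so the values of a gene in both are set side by side and are not separate evidence.

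Between Dex and Veh, 0 of the 72 members passed limma's threshold, and 0.265% of all tested probe sets did. At an unadjusted p of 0.05 there were 6 members, 3 higher and 3 lower, while 15.2% of all tested probe sets passed that mark. Among the 3 lower, Ndufa2 changed by -0.36 ± 0.13 (limma adjusted p = 0.171), and 7 of 9 Dex mice lay below the lowest Veh mouse. The median change was -0.04, against -0.03 over all tested probe sets. Sdha and Cox8c were called only when Dex 6 was left out, at adjusted p = 0.0405 and 0.0479.

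The counts depended on how bright a probe set was and on how arrays were scaled. Tested probe sets were cut into 5 equal bins by mean intensity. In the brightest (mean log2 intensity from 7.9 to 14.37), which held 52 of the 72 members, 13 members rose in Veh vs Con (25%) against 5.38% of all probe sets there, with medians of 0.33 and 0.12. The same bin held the 20 members that rose in Dex vs Con (38.5%), against 12.7% of all probe sets there, with medians of 0.27 and 0.07. Without Dex 1, 2 and 3 these shares were 19.2% (10 members) and 4.79%. Brightness also mattered within this bin. Above a mean log2 intensity of 10 lay 29 members and 418 of all tested probe sets. In Veh vs Con 31% of those members and 8.61% of all there rose, with medians of 0.41 and 0.24. In Dex vs Con 51.7% and 27% rose, with medians of 0.39 and 0.28. The 20 members outside the brightest bin had medians of -0.27 in Veh vs Con and -0.22 when Dex was compared with Con. Over all probe sets outside it the medians were -0.26 and -0.27. After quantile normalization, which forces the arrays onto 1 distribution, 3 members were called for Veh against Con (Ndufb8, Ndufa7 and Atp5e) and 7 for Dex against Con, with medians of 0.14 and 0.09. Under that scaling 1.25% and 9.71% of all tested probe sets were called in either direction. By that measure the Dex count of members is at the array-wide share. Called higher were 0.663% and 2.84% of all tested probe sets, while of the 7 members Sdha fell and the others rose. The brightest bin's medians were then 0.18 and 0.09 for members and 0.02 and -0.01 for all probe sets.

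When the fit also held the beta-actin ratio, 1 member, Ndufb8, was called in Veh vs Con and 21 for Dex against Con, and with the Gapdh ratio 3 and 21. The parts of signal level and RNA quality in the changes were not tested beyond these values.

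**Figure D2:**
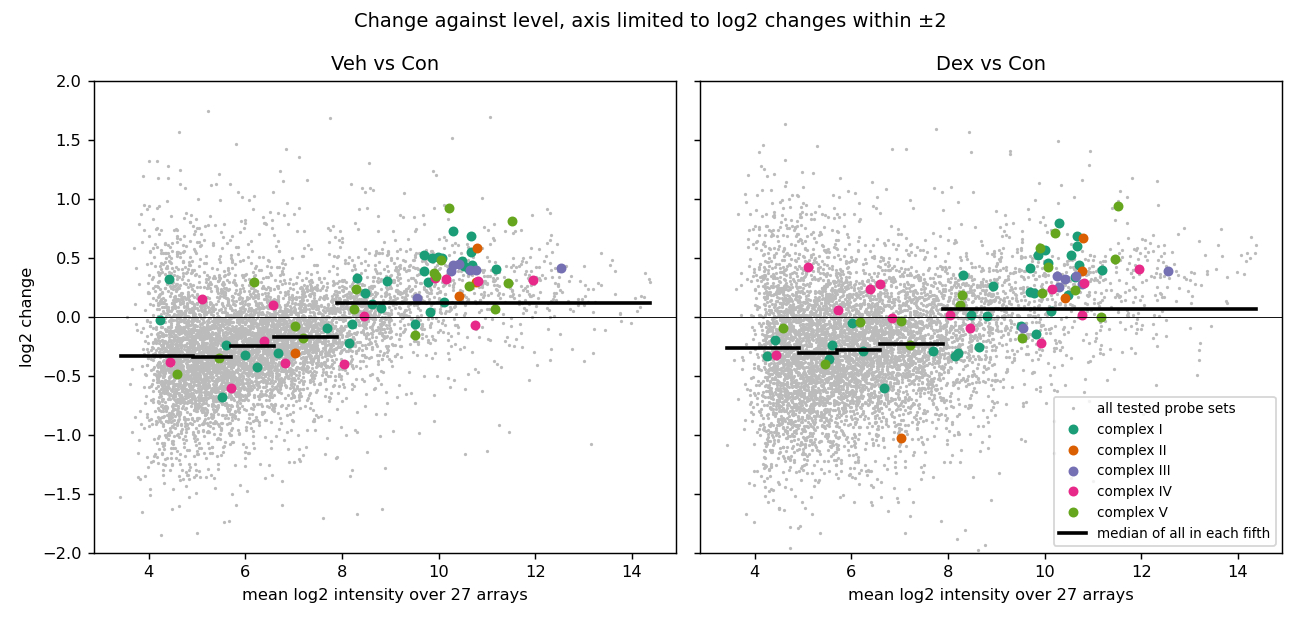
Log2 change in Veh vs Con and Dex vs Con (vertical axis, changes beyond the axis are not drawn) against mean log2 intensity over 27 arrays, for all 6784 tested probe sets (grey) and the 72 members (coloured by complex). Black lines are the medians of all probe sets in each of 5 bins of intensity, and in the brightest bin they were 0.12 and 0.07.

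In complex I most calls were for accessory subunits. Of 25 tested probe sets of accessory subunits, 10 rose in Veh and 11 in Dex, both against Con, with medians of 0.33 and 0.21, and 8 did so in Dex without Dex 1, 2 and 3. Of 5 probe sets of the core subunits Ndufs1, Ndufs3, Ndufv1 and Ndufv2, which belong to the electron-transferring arm, 0 and 1 were called, with medians of -0.06 and -0.14. The difference between core and accessory subunits was not tested.

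Ndufb8, an accessory subunit of the membrane arm, had a lowest, median and highest intensity of 745, 876 and 1115 in Con, 1026, 1379 and 2025 in Veh, and 1335, 1513 and 2068 in Dex. All 9 Dex mice and 8 of 9 Veh mice lay above the highest Con mouse. The log2 change was 0.73 ± 0.13 (SE) in Veh vs Con (limma adjusted p = 0.00304, 1.65-fold) and 0.79 ± 0.13 in Dex vs Con (limma adjusted p = 0.000356, 1.73-fold). It was called in both comparisons under all 13 other settings tried and without any 1 of the 27 arrays.

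Ndufa7, also an accessory subunit, had intensities of 977, 1285 and 1440 (lowest, median, highest) in Con, 1328, 2020 and 2615 in Veh, and 1153, 1854 and 3055 in Dex. Of the Veh mice 8 and of the Dex mice 6 exceeded the highest Con mouse. The changes were 0.69 ± 0.15 (limma adjusted p = 0.011) and 0.60 ± 0.15 (limma adjusted p = 0.0087). Ndufb2 was reported by 2 bright probe sets that both passed in both comparisons, with changes of 0.55 and 0.41 for Veh, then 0.69 and 0.34 for Dex. On the brighter of them Con spanned 898 to 1675, Veh 1450 to 2194 and Dex 1309 to 3042, so the groups overlapped. The Veh vs Con call of that probe set was kept in 14 of 27 fits that left out 1 array and lost under 5 of 13 other settings (0.33 with quantile normalization, limma adjusted p = 0.211).

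Ndufb11 spanned 706 to 952 in Con, 909 to 1569 in Veh and 973 to 1540 in Dex, and here Dex and Con did not overlap. Its changes were 0.50 (limma adjusted p = 0.0179) in Veh vs Con and 0.46 (limma adjusted p = 0.00908) in Dex vs Con. The other accessory subunits that passed in Veh vs Con changed by 0.39 (Ndufa5) to 0.53 (Ndufa9). Ndufa5 changed by 0.21 in Dex vs Con (limma adjusted p = 0.171), while Ndufb7 (0.52) and Ndufa13 (0.36) passed only there, which does not show that they differ between Veh and Dex: their Dex vs Veh changes were 0.09 and 0.03, with limma adjusted p = 0.79 and 0.94.

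Ndufv1, the subunit that binds NADH and the flavin, had intensities of 1154, 1373 and 1532 (lowest, median, highest) in Con, 1352, 1799 and 2358 in Veh, and 861, 1864 and 2615 in Dex. In each of Veh and Dex 8 mice exceeded the highest Con mouse, and Dex 8 lay below the lowest. The change was 0.44 in both comparisons, with limma adjusted p = 0.0889 for Veh and 0.0459 for Dex, and the Dex call was kept in 9 of 27 fits that left out 1 array. Ndufs1, the largest core subunit of the peripheral arm, spanned 246 to 400 in Con, 204 to 350 in Veh and 194 to 337 in Dex, with changes of -0.22 and -0.33 that did not pass (limma adjusted p = 0.346 and 0.1).

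Of the assembly factor genes, Ndufaf1 fell in Dex and Ndufaf4 did not pass. Ndufaf1, which helps build complex I, had intensities of 109.2, 120.7 and 154.3 (lowest, median, highest) in Con, 74.8, 107.4 and 150.4 in Veh, and 58.3, 88.9 and 109.2 in Dex, where 8 of 9 mice lay below the lowest Con mouse. It fell by 0.60 ± 0.15 on the log2 scale in Dex vs Con (limma adjusted p = 0.00812), and the call was lost under 3 of 13 other settings, leaving out Dex 1, 2 and 3 among them, with a highest adjusted p of 0.0855. Ndufaf4 spanned 43 to 75.5 in Con, 21 to 72.6 in Veh and 16.9 to 79.2 in Dex, and its changes of -0.68 and -0.36 did not pass (limma adjusted p = 0.11 and 0.352).

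**Figure D3:**
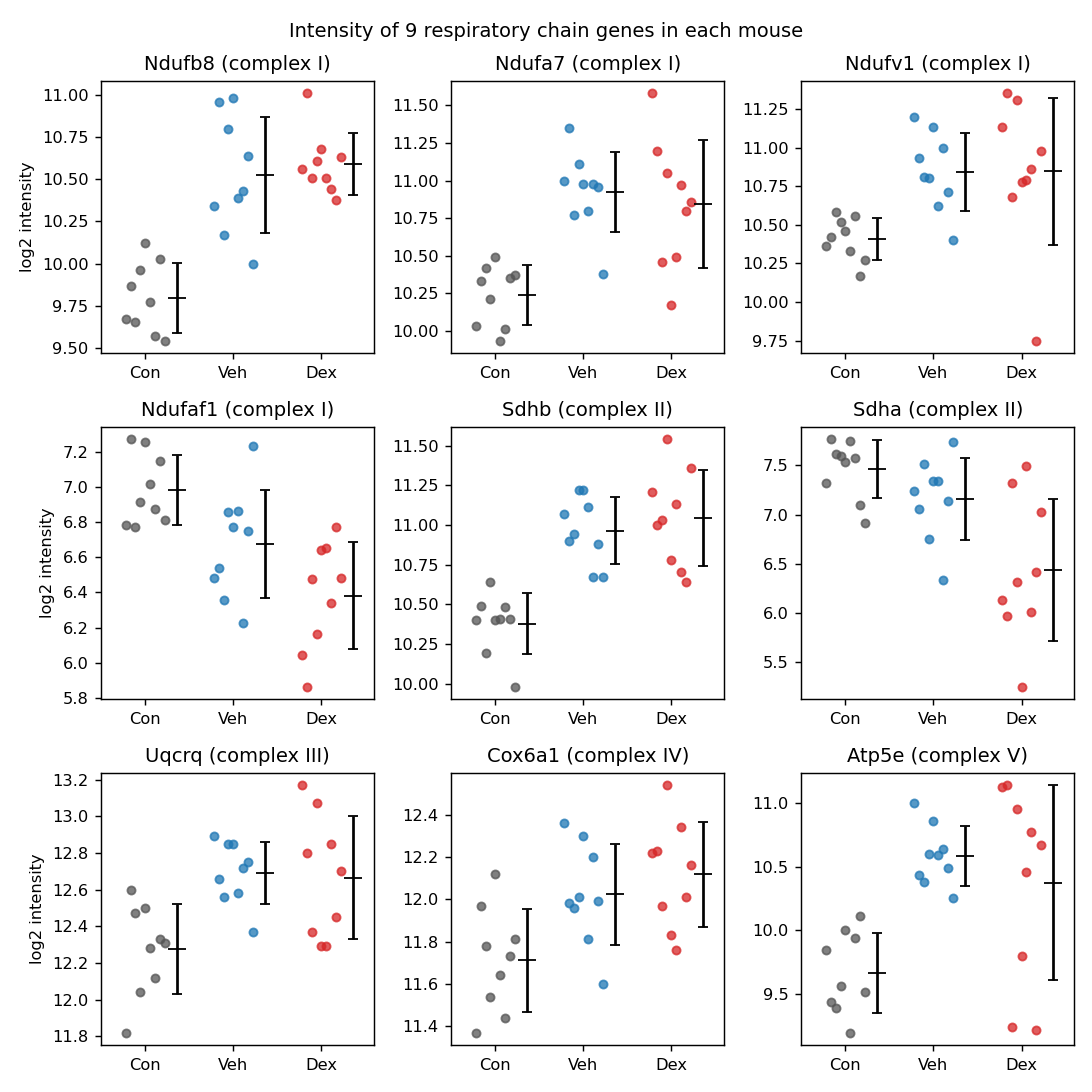
Log2 intensity of 9 member genes in each mouse (points, 9 mice a group), with the group mean and SD beside them, vertical axes differing between panels. Ndufb8 and Sdhb in Dex lay above all Con mice, and the other panels were not fully apart from Con in Dex. For Ndufaf1 and Sdha the Dex mean was lower, with 8 and 6 of 9 Dex mice below the lowest Con mouse.

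In complex II the 2 subunits of the catalytic head, Sdha and Sdhb, changed in opposite directions in Dex vs Con. They differed in brightness. Sdha, like Ndufaf1, lay in the bin below the brightest (6.59 to 7.9), where 259 of 1357 probe sets were called lower in Dex vs Con and 22 higher. Sdhb lay in the brightest bin, where 114 were called lower and 173 higher. Sdhb had intensities of 1010, 1357 and 1598 (lowest, median, highest) in Con, 1626, 1970 and 2381 in Veh, and 1600, 2089 and 2973 in Dex. Every Veh and Dex mouse lay above every Con mouse. The rise was 0.59 ± 0.12 in Veh vs Con (limma adjusted p = 0.00894, 1.5-fold) and 0.67 ± 0.12 in Dex vs Con (limma adjusted p = 0.000992, 1.59-fold). The call in Veh vs Con was lost under quantile normalization and when the fit held the beta-actin ratio, and the highest adjusted p over its alternatives was 0.122.

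Sdha, the flavoprotein subunit that oxidises succinate, had intensities of 120.5, 191.1 and 217.7 in Con, 80.8, 151.3 and 213.9 in Veh, and 38.0, 79.8 and 179.8 in Dex. Of the Dex mice 6 lay below the lowest Con mouse and 3 overlapped with Con. It fell by 1.03 ± 0.23 on the log2 scale in Dex vs Con (limma adjusted p = 0.00446, 0.491-fold), and the call held under all 13 other settings and without any 1 array. The change was -0.30 in Veh vs Con (limma adjusted p = 0.429) and -0.72 ± 0.23 in Dex vs Veh (limma adjusted p = 0.126). The membrane anchors were Sdhd, which spanned 1197 to 1746 in Con and 1568 to 2483 in Dex and rose by 0.39 in Dex vs Con (limma adjusted p = 0.036), and Sdhc, whose changes of 0.18 and 0.16 did not pass. The Sdhd call was kept in 20 of 27 fits that left out 1 array and was lost under 6 of 13 other settings (0.15 with quantile normalization, limma adjusted p = 0.477).

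The 7 complex III genes all had positive changes in Veh vs Con, with a median of 0.40. Of them 0 were past the threshold and 6 passed at an unadjusted p of 0.05. All 7 lay in the brightest bin, where 66% of all probe sets had a positive change and the median was 0.12. Above a mean log2 intensity of 10 these were 82.8% and 0.24. There 151 of 418 probe sets were higher at an unadjusted p of 0.05. Uqcrq, which encodes a small subunit, had intensities of 3603, 5086 and 6195 (lowest, median, highest) in Con, 5281, 6756 and 7573 in Veh, and 5008, 6652 and 9204 in Dex. In Veh 6 mice and in Dex 5 mice exceeded the highest Con mouse. Its changes were 0.42 (limma adjusted p = 0.0643) and 0.39 (limma adjusted p = 0.0394), so Uqcrq was the 1 complex III gene called, in Dex vs Con. That call was kept in 17 of 27 fits that left out 1 array and was lost under 6 of 13 other settings, among them quantile normalization (0.06, limma adjusted p = 0.703) and leaving out Dex 1, 2 and 3. Uqcrc1, one of the large core subunits, spanned 801 to 1197 in Con, 1009 to 1792 in Veh and 762 to 1810 in Dex, with changes of 0.39 and 0.34 (limma adjusted p = 0.0863 and 0.0738). Under quantile normalization the complex III medians were 0.18 for Veh and 0.06 for Dex.

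The 13 tested probe sets of complex IV went both ways. Their changes in Veh vs Con ran from -0.60 (Cox6b1) to 0.33 (Cox7b), with 0 called, 5 at an unadjusted p of 0.05 (3 higher, 2 lower) and a median of 0.01. In Dex vs Con the median was 0.06 with 1 called. The 7 complex IV probe sets in the brightest bin had medians of 0.31 and 0.02, where those of complexes I, II, III and V had 0.39, 0.29, 0.40 and 0.29 in Veh vs Con and 0.30, 0.39, 0.32 and 0.23 for Dex. Cox6a1, the form of subunit VIa found in liver, had intensities of 2641, 3391 and 4459 in Con, 3112, 4078 and 5266 in Veh, and 3457, 4561 and 5943 in Dex. All 9 Dex mice lay above the Con median and 5 above the highest Con mouse, with a rise of 0.41 ± 0.13 (limma adjusted p = 0.0271). The call was lost with no filter, without Dex 1, 2 and 3, and with quantile normalization, where the change was 0.08 (limma adjusted p = 0.603). Its change in Veh vs Con was 0.31 (limma adjusted p = 0.132). Cox5b spanned 787 to 1104 in Con and 1015 to 1445 in Veh, with a change of 0.32 (limma adjusted p = 0.0787). Cox4i1, a subunit thought to set the enzyme's response to ATP, was reported by dim probe sets and spanned 49.3 to 136.8 in Con, 52.0 to 148.9 in Veh and 74.2 to 180.2 in Dex. Its changes were 0.10 and 0.28, and neither passed (limma adjusted p = 0.79 and 0.362).

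Several complex IV subunits exist in more than 1 form, and the array carried both forms of some. Probes differ in how strongly they bind, so levels of 2 forms are not compared here. The probe sets of Cox6a2 and Cox7a1 lay above the array median in 1 and 0 of the 27 arrays, and that of Cox8a in 0. Of the 2 probe sets of Cox8b 1 did so in 27 arrays and the other in 0. Skeletal and heart muscle markers were low, with 3 of 10 tested, 0 called and a summed intensity of 155 to 246 in Con, 102 to 266 in Veh and 158 to 279 in Dex.

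The lowest unadjusted p-values of complex IV in Dex vs Veh belonged to small subunits. Cox6b1 spanned 11.6 to 76.9 in Veh and 40.7 to 95.4 in Dex, with a change of 0.66 ± 0.27 (limma adjusted p = 0.227). Cox8c had a median of 216.3 in Veh and 327.1 in Dex, where 7 mice lay above the highest Veh mouse and 1 below the lowest, with a change of 0.41 ± 0.16 (limma adjusted p = 0.21). Cox7b had a median of 1091 in Veh and 743 in Dex, with a change of -0.55 ± 0.24 (limma adjusted p = 0.264). None of these passed.

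In complex V the calls were for Atp5e, Atp5md, Atp5l and Atp5o. Atp5e, the epsilon subunit of the rotor's central stalk, had intensities of 585, 755 and 1106 (lowest, median, highest) in Con, 1218, 1540 and 2050 in Veh, and 592, 1629 and 2251 in Dex. All Veh mice lay above all Con mice, and in Dex 6 lay above them and 3 overlapped. Its rise was 0.92 ± 0.22 in Veh vs Con (limma adjusted p = 0.0218, 1.89-fold) and 0.71 ± 0.22 in Dex vs Con (limma adjusted p = 0.0275, 1.64-fold). The Veh vs Con call was lost when the fit held the beta-actin or the Gapdh ratio. The Dex vs Con call was lost with quantile normalization, in a fit of Dex and Con alone, and without Dex 1, 2 and 3.

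Atp5md, a small membrane-bound subunit, spanned 1138 to 3473 in Con, 2777 to 5037 in Veh and 2259 to 7178 in Dex. It rose by 0.81 ± 0.23 (limma adjusted p = 0.0435) and 0.94 ± 0.23 (limma adjusted p = 0.00853), and its Veh vs Con call was kept in 14 of 27 fits that left out 1 array. Atp5l (subunit g) and Atp5o (the stalk subunit that confers oligomycin sensitivity) rose in Dex vs Con by 0.49 and 0.58 (limma adjusted p = 0.00966 and 0.0187), with Veh vs Con changes of 0.29 and 0.37 that did not pass. Atp5a1, the catalytic-head alpha subunit, spanned 1731 to 2890 in Con, 2188 to 2649 in Veh and 1706 to 2704 in Dex, with changes of 0.07 ± 0.11 and -0.00 ± 0.11.

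Averaged over the tested members of a complex, each mouse's level can be set against the Con mean. For complex I the mean was 0.18 ± 0.106 (SD, n = 9) above Con in Veh and 0.11 ± 0.0938 in Dex, and 8 Veh and 6 Dex mice exceeded the highest Con mouse. For complex III it was 0.38 ± 0.171 and 0.26 ± 0.269, with 5 mice above in each group. Complex IV gave -0.04 ± 0.139 and 0.10 ± 0.273, with 0 and 2 mice above. Over its 7 probe sets in the brightest bin alone, complex IV gave 0.12 ± 0.165 and 0.09 ± 0.244, with 1 and 3 mice above, where complex I gave 0.32 ± 0.156 and 0.25 ± 0.138, with 8 and 6. Complex V gave 0.18 in both groups, with 6 mice above in each. The complex II mean joins Sdha and Sdhb, which moved apart, and was 0.19 in Veh and 0.05 in Dex. Dex 1, 2 and 3 lay between 0.01 and 0.08 for complex I and the other Dex mice between -0.03 and 0.24.

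**Figure D4:**
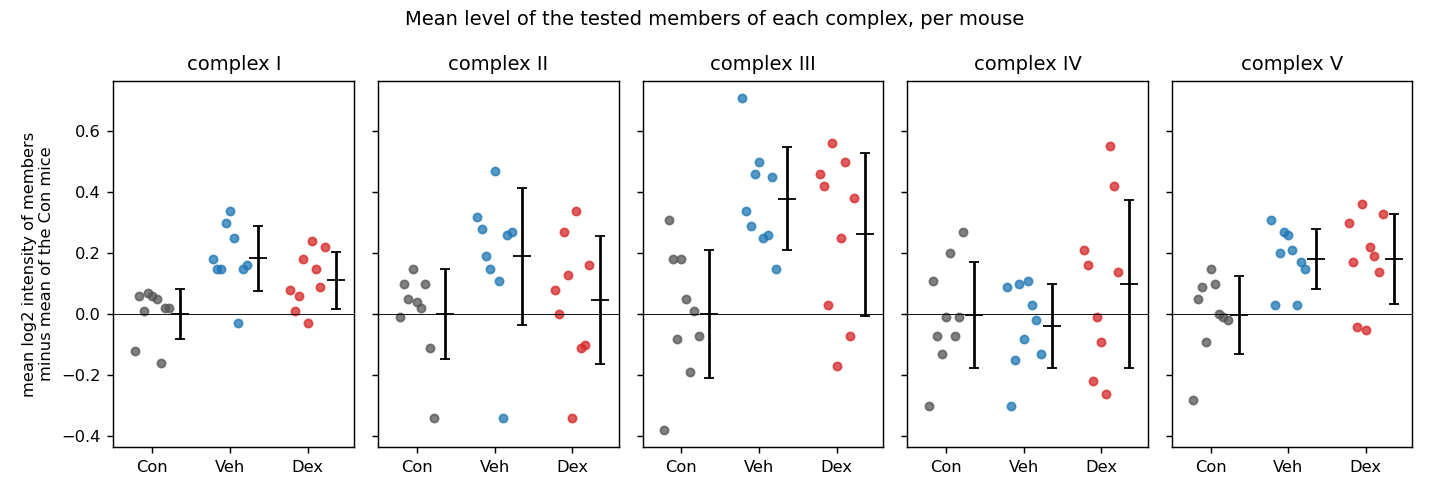
Mean log2 intensity of the tested members of each complex in each mouse, minus the mean of the 9 Con mice (points), with the group mean and SD beside them. In complex I 8 of 9 Veh mice lay above the highest Con mouse, and in complex IV 0 did.

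The members varied less between mice than the array as a whole. The median SD within a group (log2) for the members was 0.243, 0.27 and 0.335 in the order Con, Veh, Dex, and 0.375, 0.469 and 0.566 for all tested probe sets. In the brightest bin the gap was narrower, with 0.228, 0.25 and 0.313 for members against 0.266, 0.315 and 0.422 for all probe sets there. Where a gene had several tested probe sets, which was so for 7 genes, they did not always point the same way. In Veh vs Con the brighter and dimmer probe sets gave 0.47 and -0.24 for Ndufa3, and 0.26 and -0.16 for Atp5c1, none past the threshold.

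Neighbouring genes of mitochondrial energy metabolism, outside the name rule, were followed as a list of 43, of which 28 were tested. In Veh vs Con 1 of the 28 rose, Cyc1, which encodes cytochrome c1 of complex III (0.45 ± 0.12, limma adjusted p = 0.0405), and 0 fell. Over all tested probe sets 1.19% rose and 2.67% fell in Veh vs Con, and 3.26% and 13.2% in Dex vs Con. In Dex vs Con 3 of the 28 rose and 3 fell, so falls were no more frequent in the list than over the array. Without Dex 1, 2 and 3 there was 1 of each, Fh1 and Dld, against 1.31% and 4.66% of all tested probe sets. With all 9 Dex mice, the 3 that rose were the citric acid cycle enzymes Fh1 (0.80, limma adjusted p = 0.00171) and Mdh2 (0.58, limma adjusted p = 0.0267) and Cyc1 (0.41, limma adjusted p = 0.0251). Those that fell were Dld, a subunit shared by the pyruvate and oxoglutarate dehydrogenases (-0.94, limma adjusted p = 0.00371), Nnt, the transhydrogenase of the inner membrane (-0.52, limma adjusted p = 0.0267), and Gabpa, an ETS factor (-0.94, limma adjusted p = 0.027). The list's medians were -0.05, -0.13 and -0.13 in Veh vs Con, Dex vs Con and Dex vs Veh, against -0.19, -0.20 and -0.03 for all tested probe sets, and 0 of the 28 were called in Dex vs Veh.

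Some markers of liver cell types were called in Dex vs Con. Over all tested probe sets 3.26% rose and 13.2% fell there, and 32.6% had a positive change. Without Dex 1, 2 and 3, 1.31% rose and 4.66% fell. Of the 6 hepatocyte markers, 4 rose in Dex vs Con (Alb, Apoa1, Cps1 and Tat, median change of the 6 0.64) and 0 were called in Veh vs Con (median 0.18), with summed intensities of 38700 to 73500 in Con, 41000 to 90500 in Veh and 47000 to 115000 in Dex. All 6 lay above a mean log2 intensity of 10. Of all probe sets that bright, 27% were called higher in Dex vs Con and 77.8% had a positive change. Without Dex 1, 2 and 3, where Tat was highest, 0 of the 6 hepatocyte markers were called and their median was 0.46. Of 7 tested macrophage markers 1 fell in Dex vs Con (Cd5l, -0.99, limma adjusted p = 0.0172) and all 7 had negative changes, with sums of 636 to 1390 in Con, 562 to 1940 in Veh and 368 to 1150 in Dex. A fall in 1 of 7 is near the array-wide share. Without Dex 1, 2 and 3, 0 of the 7 were called. The 2 red cell markers summed to 2750 to 5620, 2760 to 7090 and 2650 to 10100 in the same order, and went opposite ways: Alas2 fell by 1.97 in Dex vs Con (limma adjusted p = 0.0178), and Hba-a1 changed by 0.57 (limma adjusted p = 0.0662). Without Dex 1, 2 and 3 neither was called. Of 3 tested endothelial markers 1 fell in Dex vs Con (Cdh5, -0.63, limma adjusted p = 0.042). The sums were 114 to 164, 104 to 161 and 76.4 to 155. Without Dex 1, 2 and 3 Cdh5 was still called lower. Kdr (-0.43) and Pecam1 (0.38) were not called in Dex vs Con. Of 4 tested stellate cell markers 0 were called, and none of the 4 fat and 3 bile duct markers on the array was bright enough to test. The part of these cell types in the members' changes was not tested.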

How the data were processed

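Liver RNA of 27 mice was measured on Affymetrix arrays, 9 each in Con, Veh and Dex, as the sample titles name them. Per the labels, RNA came from Trizol and RNeasy purification, and its integrity was looked at on a Bioanalyzer. The authors deposited 1 linear intensity per probe set and array. The 2% trimmed mean of every array lay between 100.1 and 100.2, so 1 scaling factor per array had been applied. The sources used here name no summary software.

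A floor at the 10th percentile of positive values (2.6) came before the log2 step, with no further scaling. The 66 control probe sets were left out. All 27 arrays entered 1 fit of group means in limma (version 3.58.1, R 4.3.3, eBayes with a mean trend, 24 residual degrees of freedom, two-sided, Benjamini-Hochberg over 6784 probe sets), and changes carry the fit's standard errors. Quality ratios and array medians were compared by exact permutation over 48620 splits. The script was tested on simulated data. Symbols came from GEO's platform annotation, with 1 symbol for 10855 probe sets, several for 396 and none for 1237. Where a gene had several tested probe sets, the one with the highest mean stood for it.

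The members, gene lists and motifs were chosen with earlier results of these data known, and the NRF1 search was left out after its result was seen. The rule for naming genes took, in each comparison, the 6 largest rises and 6 largest falls past the threshold (all, if 12 or fewer), each complex's most positive and most negative member, fixed core subunits and isoform pairs. Other members named beside them were chosen after their values were seen. The rule also took Ndufa10, Uqcrc2, Cox6b2, Cox7a2, Atp5k, Atp5d and Atp5g2, which are not described above. None of these was called in any comparison. Replicate numbers did not pair the mice: correlations of same-numbered deviations ran from -0.20 to 0.19. Alternatives were other scalings, floors, filters, variance models, quality covariates and left-out arrays. The 5 brightness bins and 1 probe set per gene were added after seeing the data.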

Additional observations from a re-analysis of the deposited data

Results flagged for a closer look

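Among 81 groups of 9 mice of the named members, 5 held a mouse set apart from the others by more than a criterion that chance meets in about 1 of 20 groups. All 5 were in Dex, on the log2 intensity scale. Cox8c in Dex 6 was at 7.23, below the nearest value of 8.11. Cox7b in Dex 7 was at 11.17, above the nearest value of 9.9. Ndufb8 in Dex 2 was at 11.01, above 10.68. Dex 8 was low for 2 genes, Ndufv1 at 9.75 with the nearest at 10.68, and Uqcrc1 at 9.57 with the nearest at 10.25.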

How the results depend on the processing

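Against Con, counts moved widely. The 13 members called in Veh vs Con became 3 with quantile normalization, 20 with arrays centred on the median, 6 with no filter, 21 in a fit of the 2 groups, 7 with no mean trend, 33 with array weights (32 higher, 1 lower), 1 with beta-actin as a covariate and 3 with Gapdh. Leaving out 1 array gave 5 to 20: 5 without Veh 5, 6 without Con 1, Con 3, Con 7, Veh 2 or Veh 4, 7 without Con 9, 8 without Con 6 or Veh 8, and 20 without Veh 9. The median change (0.27) was 0.14 with quantile normalization, 0.51 with centring and 0.10 with no filter. Of the named members 6 were called, but 3 after quantile normalization, and 1 or 3 with beta-actin or Gapdh as a covariate. The 22 members called in Dex vs Con became 7 with quantile normalization and 11 without Dex 1, 2 and 3, and leaving out 1 array gave 15 to 24. Their median (0.19) was 0.09 with quantile normalization and 0.44 with centring. The 13 named members called became 5 and 6 with quantile normalization and without Dex 1, 2 and 3. The pathway genes called fell from 1 to 0 and from 6 to 2 with quantile normalization. The Dex vs Veh count was 0 throughout, except 2 without Dex 6. The causes were not tested. Among called values, 0 changed sign.

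With the replicate number as a replicate block, 11 members were called in Veh vs Con, 19 in Dex vs Con and 0 in Dex vs Veh. The numbers did not pair the mice, and 4 of 27 arrays correlated best with their own number.

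Probe sets near the floor were not tested, so 8 genes have no change or test here. Of the 72 tested members 48 had a plain probe set name, and the other names carry a suffix that marks shared or relaxed probe design. In Veh vs Con 6 of the 48 plain ones were called higher. So were 3 of 15 with suffix f, 1 of 4 with r, 1 of 2 with i and 2 of 2 with s. The probe sets of Sdhb (s) and Atp5e (i), where Veh and Con did not overlap, carry such a suffix. In Dex vs Con 13 of the 48 plain ones and 4 of the 15 with f were called higher. Whether suffixed probe sets also measured other transcripts was not tested.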

Other observations

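Outside the rule, 10 probe sets were annotated to a respiratory chain gene together with another symbol, mostly a pseudogene or duplicate, and 9 were tested. Over all tested probe sets 1.19% were called higher for Veh and 3.26% for Dex, each against Con. All of the 9 except that of Ndufb4 lay in the brightest bin, where these shares were 5.38% and 12.7%. The first of 2 Ndufs6 probe sets (with Ndufs6b), and those of Ndufa11 (with Ndufa11b) and Ndufs5 (with its pseudogene), changed in Veh vs Con by 0.48, 0.53 and 0.58, with limma adjusted p = 0.0183, 0.0281 and 0.0281. In Dex vs Con the same probe sets changed by 0.42, 0.41 and 0.43, with limma adjusted p = 0.0118, 0.034 and 0.0459. The second Ndufs6 probe set changed by 0.21 (limma adjusted p = 0.311) and 0.37 (limma adjusted p = 0.0478). The 2 probe sets of Cox7c, a complex IV subunit, annotated with Gm12338, changed by 0.35 and 0.55 in Veh vs Con (limma adjusted p = 0.0959 and 0.0435) and by 0.36 and 0.61 in Dex vs Con (limma adjusted p = 0.0478 and 0.0111). Those of Ndufab1 (-0.03 and -0.06), Ndufb4 (-0.23 and 0.01) and Atp5c1 (0.27 and 0.17) did not pass in either. Which copy these probe sets measured is uncertain. In Dex vs Veh, 0 of the 9 were called.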
